A study of Bos taurus with 20 samples.

Results

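The genes of the motile cilium were followed in bovine endometrium, the lining of the uterus, in biopsies taken from the same cows some weeks after calving and again much later. Probes were taken by gene name: any DNAH, DNAI, DNALI, RSPH, TEKT, SPAG, IFT or CFAP name followed by a digit, and FOXJ1, PIFO, TPPP3, CCDC39, CCDC40, CCDC11, SPEF1, SPEF2, MNS1 and ROPN1L. This gave 47 of the 25325 gene names on the array, with 92 of its 43653 probes. The array's own names hold no CFAP gene, no PIFO and no SPEF2. A group of 10 female cows was biopsied in the early period, on days 42 to 86 after parturition, and again in the late period, on days 343 to 436, which gave 10 samples per period. Each biopsy was taken with forceps 7 days after oestrus from the horn of the uterus that lay beside the corpus luteum. All samples therefore share that day of the cycle. No treatment or genotype separated the groups, and each sample was hybridised to 1 one-colour array. A biopsy of endometrium holds epithelium, stroma, vessels and immune cells together. Fewer cells of a type and less RNA per cell cannot be told apart in it.

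Motile cilia are the beating hairs of multiciliated cells, which in the uterus sit in the surface epithelium and the necks of glands, among the secretory cells. Their core, the axoneme, is a ring of paired microtubules around a central pair. Dynein arms on the ring slide the microtubules against each other, radial spokes connect the ring with the central pair, and tektins and other proteins line the inside of the microtubules. FOXJ1 is the transcription factor that switches on this gene programme. Intraflagellar transport (IFT) proteins carry cargo along the cilium as it is built, and they are also used by the single non-motile primary cilium of most other cells. SPAG stands for sperm-associated antigen, a naming series that mixes true axoneme genes (SPAG6, SPAG16, SPAG17, SPAG8) with genes of other cell functions.

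The name rule therefore gathered 3 kinds of probe. There were 52 axonemal probes of 33 gene names, here also including FOXJ1 and TPPP3, 27 IFT probes of 9 names, and 13 probes of 5 other SPAG names (SPAG4, SPAG5, SPAG7, SPAG9 and SPAG11B). The level of a probe is the log2 of its processed signal minus the 75th percentile of that array, so a level of 0 is the array's 75th percentile. A probe was tested if it was well above the local background on at least 8 of the 20 arrays. Of the 92 probes 77 passed, for 42 of the 47 names, and 61 probes were well above background on all 20 arrays. The 15 probes that were not tested were well above background on at most 5 arrays, and 6 of them on 0 arrays. For DNAH2, DNAH5, SPAG16, SPAG17 and TEKT5 no probe passed.

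The probes are 60 bases long, and several genes are read by more than 1 of them, so the sequences show which probes are separate measurements. The following probes read axonemal genes that the results below turn on. Coordinates are those of the array files, in the HGSC Btau_3.1 assembly of the cattle genome, and no annotation of exons or UTRs on that assembly was used. No capitals are used where nothing is compared.
CCDC39, chr1:88431055-88431114, plus strand: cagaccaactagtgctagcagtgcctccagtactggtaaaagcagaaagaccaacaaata
DNAH6, chr11:52103548-52103598, minus strand: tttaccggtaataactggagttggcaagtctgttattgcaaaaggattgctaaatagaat
DNALI1, chr3:115529753-115531714, minus strand: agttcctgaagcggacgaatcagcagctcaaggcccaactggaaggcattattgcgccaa
SPEF1, chr13:51995306-51995365, plus strand: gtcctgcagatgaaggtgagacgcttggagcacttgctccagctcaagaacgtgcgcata
FOXJ1, chr19:57262765-57262824, plus strand: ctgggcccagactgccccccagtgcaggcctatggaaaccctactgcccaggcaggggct
TPPP3, chr18:34021051-34021110, minus strand: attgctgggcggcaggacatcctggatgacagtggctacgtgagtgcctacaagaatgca

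SPAG6 has 4 probes, and 2 of these overlap almost wholly. The pair is shown because its members repeat 1 measurement rather than giving 2. Capitals mark the 53 bases they share.
SPAG6, chr13:22963279-22966319, plus strand: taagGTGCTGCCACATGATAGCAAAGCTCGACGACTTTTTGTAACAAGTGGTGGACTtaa
SPAG6, chr13:22963276-22966316, plus strand: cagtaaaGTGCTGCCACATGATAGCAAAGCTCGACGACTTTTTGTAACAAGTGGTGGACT
The ends of both lie 3041 bases apart on the genome, although each probe is 60 bases long. Of the 92 probes 21 have ends farther apart than their own length. TPPP3 likewise has a pair of probes that share 52 bases, of which the first 30 are TGCTCTGGCCAAGTGCCTAATTCTTTCCTG; the TPPP3 probe listed above lies apart from them.

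IFT80 has 8 probes, of which 4 share a window of 20 bases, on either strand, with probes of other genes. Each of these 4 shares such a window with 5 to 17 of them. No other cilium probe did, which makes 4.35% of the 92, against 3.67% of all 43653 probes. Their levels may hold signal of other transcripts, which was not tested.

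On each array between 71.8% and 80.2% of the spots were well above background, and no spot was saturated. Of the epithelial markers, 32 of 32 probes (EPCAM, cytokeratins, claudins and others) passed the same filter, as did 44 of 44 stromal probes. The arrays lay on 5 slides of 4, and slides and periods were nearly the same division. Slides 1 and 2 held early samples only, slides 4 and 5 late samples only, and slide 3 the early samples of cows 9 and 10 with the late samples of cows 1 and 2. The early sample of cow 4 stood apart with the highest mean level of the steroid-response markers (ESR1, PGR and OXTR), 3.05 above their mean over all arrays, where the early samples ran upwards from -1.04 with a median of 0.26. The early sample of cow 9 had the lowest epithelial marker mean, -1.23, and the highest smooth muscle marker mean, 1.35. Both samples were also low in many axonemal probes, so changes are also given without these 2 cows for some of the members. Leaving them out selects on the outcome, since a low early level makes a late rise larger.

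Between late and early, 0 of the 77 tested cilium probes passed the test (limma with cow as a block, adjusted p under 0.05), while 381 of 33759 probes on the array did, which is 1.13%. Of all probes 0.352% were called higher and 0.776% lower. At an unadjusted p under 0.05 there were 22 cilium probes, 16 higher late and 6 lower, where all probes gave 23.8%, 10.4% higher and 13.4% lower. The median change of the 77 probes was 0.15 on the log2 scale, with 54 positive and 23 negative, and over all tested probes it was -0.02, with 47.4% positive.

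The 3 kinds of probe gave different medians. The 39 tested axonemal probes had a median change of 0.36 with 34 positive and 5 negative, the 27 IFT probes a median of 0.07 with 16 positive, and the 11 other SPAG probes a median of -0.01 with 4 positive. The spread over the 20 arrays also differed: the median SD of the log2 level was 0.84 for axonemal probes, 0.28 for IFT probes, 0.34 for other SPAG probes and 0.36 for all tested probes. In the map of all tested cilium probes the axonemal block varies from cow to cow far more than the IFT block. The axonemal probes also had lower levels, with a median of -3.92 against -0.26 for IFT probes and -1.84 for all tested probes. Of the 39, 26 were well above background on all 20 arrays. How far low signal widened their spread was not tested. These counts and medians describe the lists and carry no test.

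**Figure D1:**
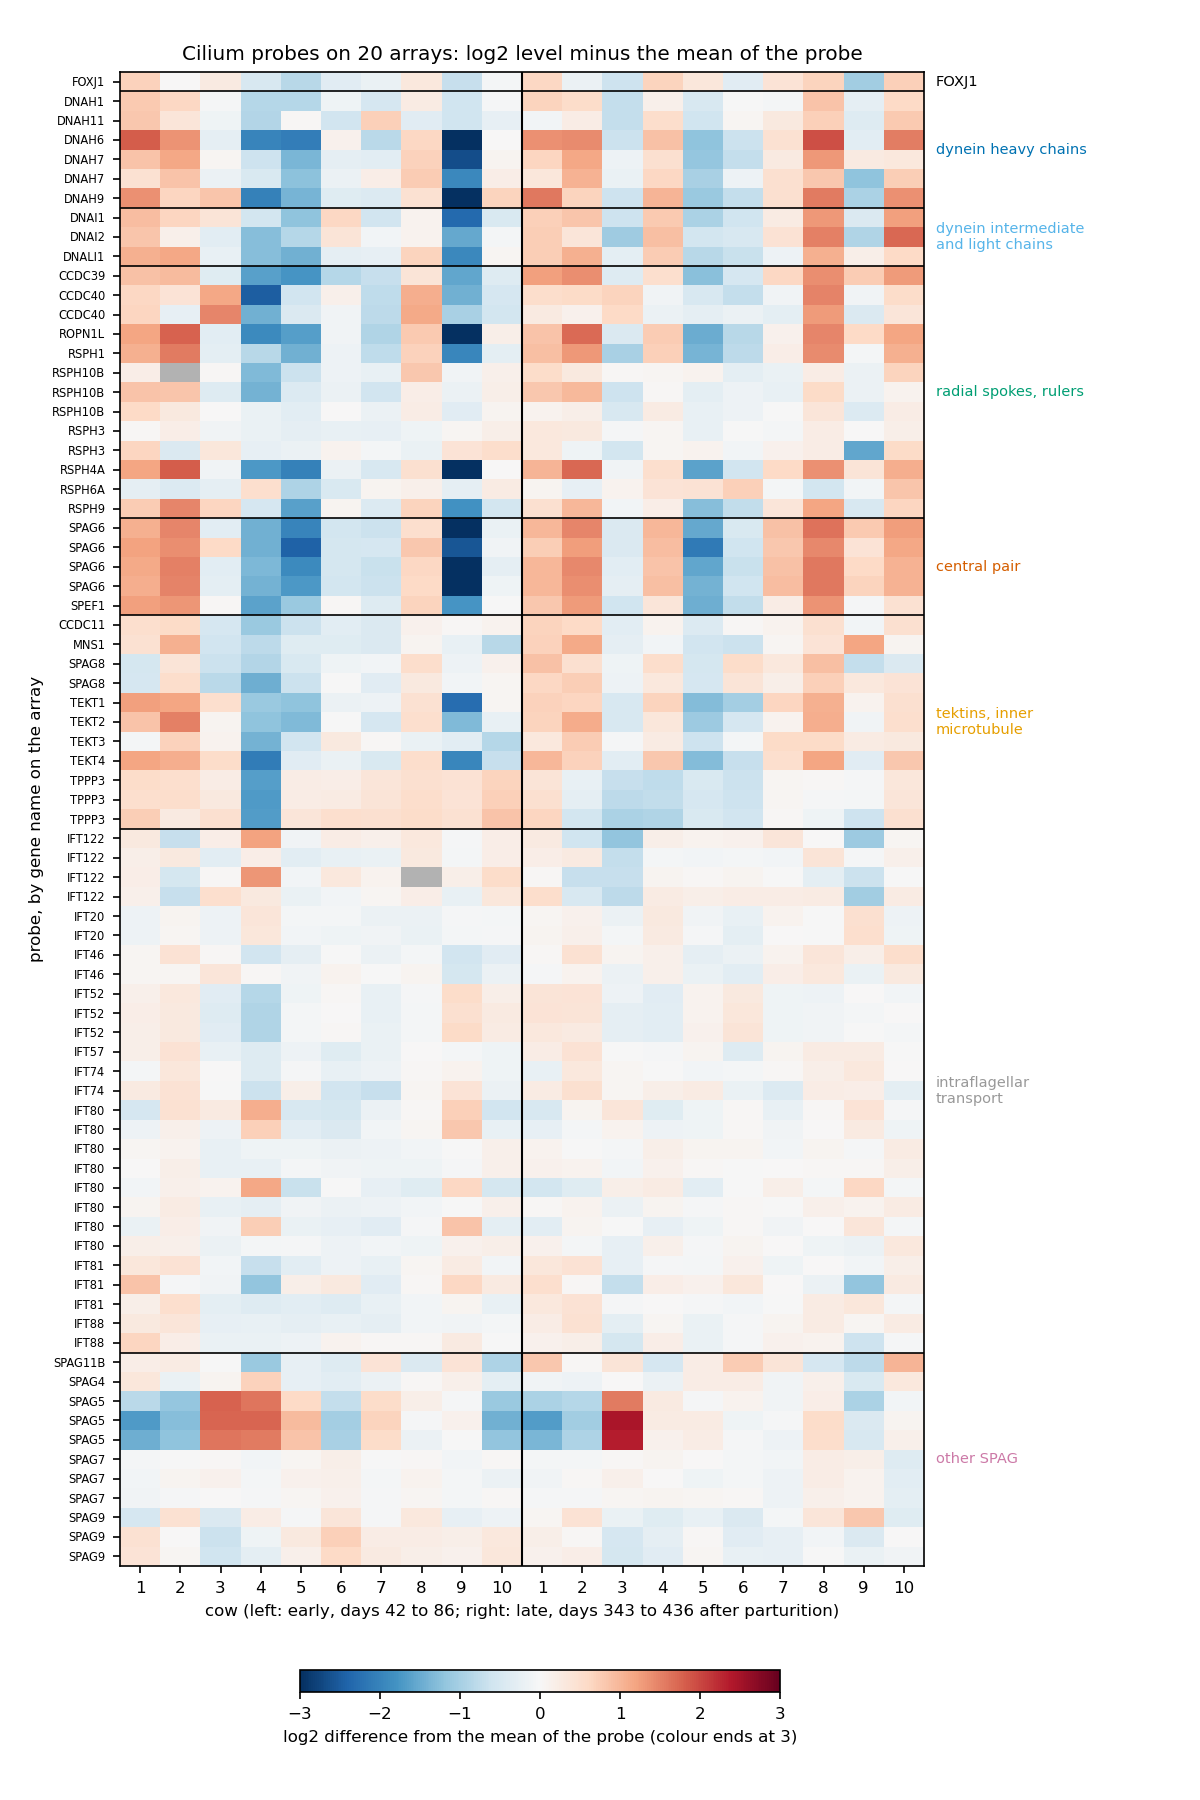
Heat map of the 77 tested cilium probes (rows, by gene name and role) on 20 arrays (columns, cows 1 to 10 early on the left and late on the right). Colour is the log2 level minus the probe's mean over the arrays, and grey marks the 2 missing values; most axonemal rows are low in the early samples of cows 4, 5 and 9, while most IFT rows vary less; in the early sample of cow 4 rows of IFT122 and IFT80 are raised and those of IFT81 are low.

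FOXJ1, the regulator of the programme, gave no detectable difference between the periods. Its tested probe ranged early from -5.60 through a median of -4.90 to -4.07, and late from -5.81 through -4.39 to -4.07. The ranges overlapped almost wholly, and 5 cows were higher late and 5 lower. The change was 0.26 ± 0.20 (SE, n = 10 cows), with a 95% interval of -0.17 to 0.68 and an adjusted p of 0.439 (limma). The other FOXJ1 probe was well above background in 2 early and 3 late samples and was not tested.

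Dynein heavy chains are the motor subunits of the outer and inner arms. All 6 tested probes of 5 genes (DNAH1, DNAH6, DNAH7, DNAH9, DNAH11) had positive changes, 0.16 to 0.96, with a median of 0.39 and 0 called. DNAH6, an inner arm heavy chain, had the widest spread over the arrays of the 77 probes, with an SD of 1.46. This probe was well above background in 7 early and 10 late samples. The other DNAH6 probe, at almost the same place, was so in 0 and was not tested. Early levels of the tested probe ran from -8.61 in cow 9 through a median of -5.19 to -3.25 in cow 1. Its late levels ran from -6.27 in cow 5 through -4.38 to -3.13 in cow 8. In the early sample of cow 9 the lowest spot well above background was at -6.67, so the spread and the change rest in part on values at the floor. Late levels lay within the early range except for that highest one, and 7 of 10 cows were higher late. The change was 0.96 ± 0.39 (SE), a 1.94-fold higher level, and the adjusted p was 0.167, and without cows 4 and 9 it was 0.43 ± 0.28. DNAH9, an outer arm heavy chain, ran from -8.82 through -5.71 to -4.38 early and from -6.87 through -5.18 to -4.17 late, with a change of 0.66 ± 0.36 and an adjusted p of 0.281. Its probe was likewise well above background in 7 early and 10 late samples. The DNAH9 change was 0.39 without cow 4 and 0.18 ± 0.25 without cows 4 and 9. DNAH7, an inner arm chain, had changes of 0.30 ± 0.12 and 0.48 ± 0.28 on its 2 probes, and DNAH1, also of the inner arm, one of 0.26 ± 0.14. In that order these became 0.14, 0.10 and 0.16 without cows 4 and 9.

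The intermediate and light chains anchor or complete the dynein arms, and their 3 tested probes gave almost equal changes. DNAI1 and DNAI2, outer arm intermediate chains, had changes of 0.50 ± 0.31 (adjusted p = 0.339) and 0.54 ± 0.29 (adjusted p = 0.272), each higher late in 7 of 10 cows. DNALI1, a light intermediate chain of the inner arms, ran from -6.95 through -5.26 to -3.87 early and from -5.85 through -4.63 to -3.95 late. Its change was 0.49 ± 0.26 with an adjusted p of 0.264, and 6 cows were higher late. Without cow 9 it was 0.31 and without cows 4 and 9 it was 0.10 ± 0.13.

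The radial spoke group held the cilium probe of smallest adjusted p. It has 13 probes of 9 genes, all tested, with a median change of 0.26, 11 positive and 2 negative. CCDC39, the molecular ruler that with CCDC40 sets the repeat along the microtubule on which spokes and inner arms dock, ran from -5.90 through -4.68 to -3.19 early and from -5.40 through -3.45 to -2.74 late. The ranges overlapped, but 9 of 10 cows were higher late and the remaining one, cow 3, was lower by 0.03. The change was 1.004 ± 0.234 (SE), with a 95% interval of 0.49 to 1.52, which is 2.01-fold, and an adjusted p of 0.060 (limma). With the normexp background correction it was 0.62 with an adjusted p of 0.0494, which passes the test. The same correction lowered the median change of the 39 axonemal probes from 0.36 to 0.23, with 36 positive.

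Other spoke proteins gave positive estimates with wider errors. RSPH4A, a spoke head protein, ran from -7.81 through -4.57 to -2.60 early and from -6.04 through -3.87 to -2.70 late, with a change of 0.88 ± 0.36 and an adjusted p of 0.173. Without cow 9 that change was 0.56, and without cows 4 and 9 it was 0.36 ± 0.19. ROPN1L, a spoke-bound protein, ran from -3.77 through -0.99 to 0.98 early and from -2.28 through -0.10 to 0.91 late, with a change of 0.79 ± 0.39 and an adjusted p of 0.239. The ROPN1L change was 0.47 without cow 9 and 0.20 ± 0.20 without cows 4 and 9. RSPH1, another spoke head protein, had a change of 0.48 ± 0.27 and the 2 CCDC40 probes had changes of 0.46 ± 0.27 and 0.26 ± 0.18. In that order these became 0.17, 0.12 and 0.10 without cows 4 and 9. RSPH9, of the spoke head as well, had a change of 0.26 ± 0.23, and one of 0.06 without cows 4 and 9. Its probe is printed 4 times on each array, and the SD between the 4 spots of an array had a median of 0.083 and reached at most 0.191. This covers spot-to-spot error only, not labelling, hybridisation or slide. The SD of the mean level over the 20 arrays was 0.91.

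RSPH3 and RSPH10B were read differently by their own probes. The RSPH3 probes had changes of 0.15 ± 0.06 and -0.18 ± 0.21 and correlated at r = 0.18 over the 20 arrays. The 3 RSPH10B probes had changes of 0.25 ± 0.18, 0.21 ± 0.14 and -0.04 ± 0.10, and correlated at 0.53 to 0.74. The adjusted p was 0.192 or more for all of these. The negative RSPH3 estimate turned to 0.02 with cow 9 left out. The late value of cow 9 on that probe, -7.99, lay under the lowest spot well above background of its array, -7.00. For the first RSPH10B probe 1 early value was missing, so that cow dropped out of its test. RSPH6A, with a low median level of -6.06, had a change of 0.32 ± 0.18 and did not follow the other axonemal probes (r = -0.08 with their mean). The RSPH3 probe of negative change also followed them little, with r of 0.03 among early and 0.39 among late samples.

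The central pair group, mostly probes of SPAG6, had the largest median change of the roles. Its 5 tested probes, 4 of SPAG6 and 1 of SPEF1, had a median change of 0.97, all positive, with 0 called. SPAG6, a central pair protein, ran on its probe of smallest p from -5.23 in cow 9 through a median of -2.18 to -0.30 early, and from -3.29 in cow 5 through -0.82 to -0.12 late. The late levels lay within the early range except for 2, of cows 2 and 8, and 8 of 10 cows were higher late. The change was 1.11 ± 0.39, which is 2.17-fold, with an adjusted p of 0.128, and the other 3 probes gave 0.71, 0.97 and 1.05 with adjusted p from 0.140 to 0.249. The 4 probes correlated at 0.952 to 0.997 with each other. In cow 9 alone the first probe was 4.26 higher late than early. Without cows 4 and 9 its change was 0.56 ± 0.22 with an adjusted p of 0.181, and those of the other 3 probes were 0.22, 0.47 and 0.49. SPEF1, which binds the microtubules of the central pair, had a change of 0.32 ± 0.27 with an adjusted p of 0.484, and 5 cows were higher. Without cows 4 and 9 the SPEF1 estimate was -0.06 ± 0.18.

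Tektins and inner microtubule proteins gave changes of both signs. This group has 11 tested probes of 8 genes, 8 positive and 3 negative with a median of 0.33, and the 3 negative ones are all TPPP3. SPAG8, a protein of the microtubule interior, ran from -1.78 in cow 4 through -0.53 to 0.21 early and from -0.84 through 0.03 to 0.41 late. It was higher late in 10 of 10 cows, by 0.14 to 1.77. The change was 0.60 ± 0.15, or 1.51-fold, with an adjusted p of 0.067, and the other SPAG8 probe gave 0.36 ± 0.20 with an adjusted p of 0.285. CCDC11, now named CFAP53 and also an inner microtubule protein, had a change of 0.33 ± 0.12 with an adjusted p of 0.126, higher in 9 cows. MNS1 had a change of 0.39 ± 0.15. The tektins TEKT1, TEKT2, TEKT3 and TEKT4, filament proteins bound to the inner wall, had changes of 0.29 to 0.47 with adjusted p from 0.160 to 0.592. Without cows 4 and 9 the tektin estimates were -0.15, 0.06, 0.30 and 0.03 in the same order.

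TPPP3, a tubulin-binding protein that bundles microtubules, had negative estimates on all 3 tested probes. The probe whose sequence is listed above ran from -1.14 through a median of 1.01 to 1.38 early and from -0.43 through 0.02 to 1.17 late. In 9 of 10 cows it was lower late, by 0.10 to 1.44, and in cow 4 it was higher by 0.77. The early value of cow 4 lay far under those of the other early samples, the lowest of which was 0.80. The change was -0.61 ± 0.18, a 1.52-fold lower level, with an adjusted p of 0.093, and the overlapping pair of probes gave -0.40 and -0.43 with adjusted p of 0.152 and 0.158.

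Cow 4 decided the TPPP3 call. Without it the 3 probes changed by -0.55, -0.58 and -0.76 with adjusted p of 0.0368, 0.0489 and 0.0394 (limma), so all 3 passed the test and fell. They also passed without cows 4 and 9 together, with adjusted p between 0.0408 and 0.0489. Cow 4 had the outlying early value of these same probes, so leaving it out selects on the outcome. The overlapping pair also repeats 1 measurement. With any other cow alone left out, no cilium probe passed. On the whole array 168 probes were called without cow 4 and 312 without both cows. On 1 of the overlapping TPPP3 probes the late samples of slide 4 (cows 3 to 6) were the 4 lowest of the late samples, at 2.74 to 3.05, against 3.27 to 3.90 on slides 3 and 5. Slide and period could hardly be told apart here. With slide as a further fixed block that probe gave -1.22 ± 0.85, and among the 4 arrays of slide 3 it gave -0.47 ± 0.31, both with adjusted p above 0.7.

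**Figure D2:**
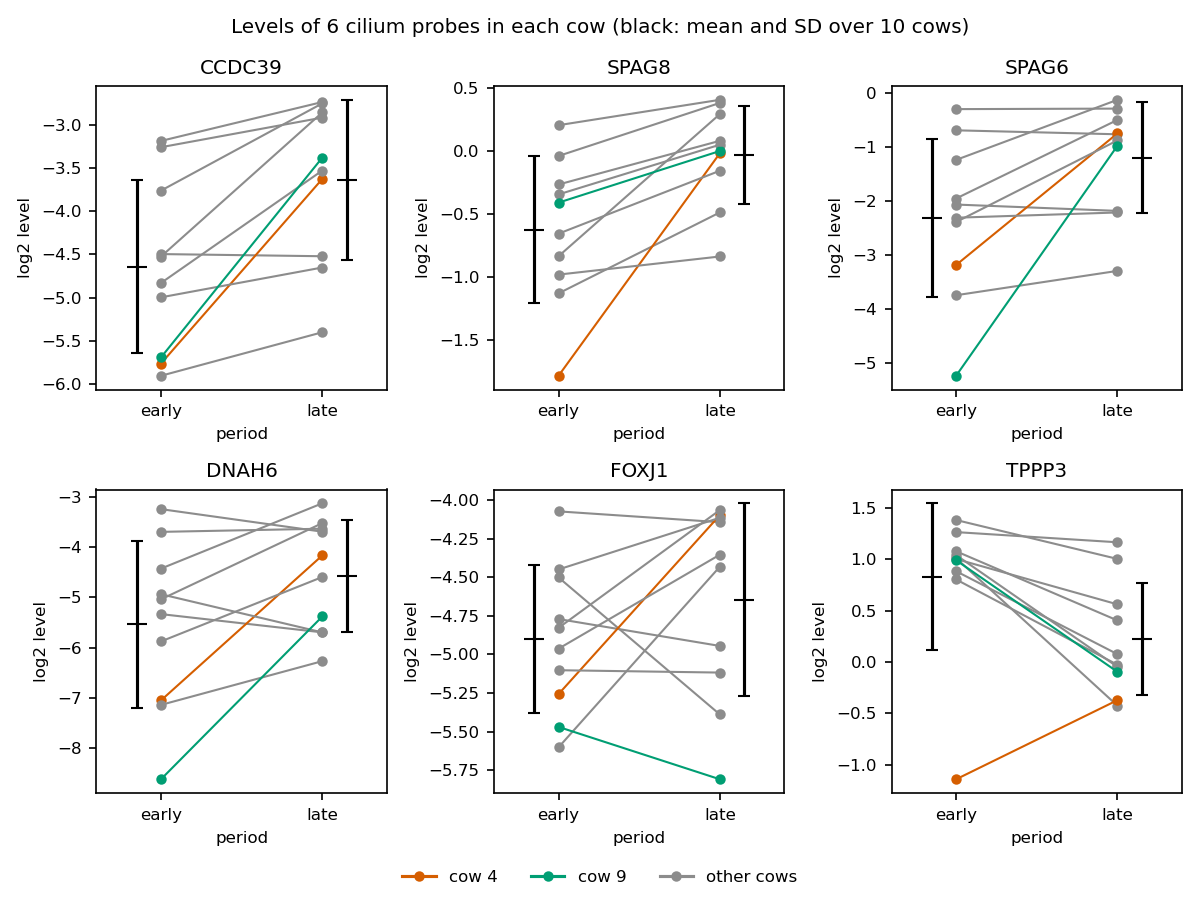
Log2 level of CCDC39, SPAG8, SPAG6, DNAH6, FOXJ1 and TPPP3 (1 probe each) in each of 10 cows, early and late, joined by lines, with the mean and SD in black. SPAG8 is higher late in 10 of 10 cows and CCDC39 in 9, while TPPP3 is lower late in all cows but cow 4, whose early value is -1.14.

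The IFT genes gave small estimates. Their 27 probes, all tested, had changes between -0.44 and 0.30 and 0 were called. IFT81, a tubulin carrier of the IFT-B complex, had a change of 0.23 ± 0.06 on 1 probe, higher late in 9 of 10 cows, with an adjusted p of 0.085, and changes of 0.10 ± 0.09 and -0.12 ± 0.23 on its other probes. IFT57 and IFT46, both IFT-B subunits, had changes of 0.18 ± 0.07 and 0.30 ± 0.12 with adjusted p of 0.143 and 0.164. IFT122, a subunit of the IFT-A complex, which brings cargo back, had a change of -0.44 ± 0.14 on the probe of smallest p, lower late in 8 of the 9 cows measured, with an adjusted p of 0.108. A further IFT122 probe had a change of -0.01 ± 0.08. IFT88 was also split by its probes, with 0.17 ± 0.07 and -0.15 ± 0.11.

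The 8 probes of IFT80, an IFT-B subunit, fell into the same division as their sequences. The 4 that share sequence with other genes correlated with each other at 0.65 to 0.92 over the 20 arrays, and the other 4 with each other at 0.78 to 0.95. The sharing probes all lie within chr1:108890134-108890205 and also share windows with one another, so they are not 4 separate measurements. Across the division every correlation was negative, -0.37 to -0.05. The sharing probes had SDs of 0.12 to 0.15 and changes of -0.00 to 0.11, and the others had SDs of 0.31 to 0.45 and changes of -0.07 to -0.02. All adjusted p were 0.302 or more. In the early samples of cows 4 and 9, where the axonemal probes were lowest, the other 4 IFT80 probes had their highest early levels.

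The remaining SPAG genes have other cellular roles and did not follow the axoneme. SPAG7 was the steadiest: its 3 probes, of which 2 overlap, had SDs of 0.10 to 0.14 and changes of -0.04 to -0.00. SPAG5, a spindle protein needed for chromosome segregation in mitosis, had SDs of 0.90 to 1.16 on its 3 tested probes, with changes of -0.17, 0.09 and 0.05 and adjusted p of 0.643 or more. Its level followed the proliferation markers (MKI67, TOP2A, CDK1 and others) with r of 0.95 to 0.98 over the 20 arrays, and ran against the axonemal mean with r of -0.46 to -0.50. SPAG9, a scaffold of stress kinases, had changes of -0.32 ± 0.11 and -0.25 ± 0.10 on 2 probes that correlated at 0.96, and one of 0.00 ± 0.16 on its other probe, which hardly followed them. SPAG11B, an epididymal defensin-like gene in other species, had a change of 0.37 ± 0.24 and SPAG4, a nuclear envelope protein, one of -0.01 ± 0.15.

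**Figure D3:**
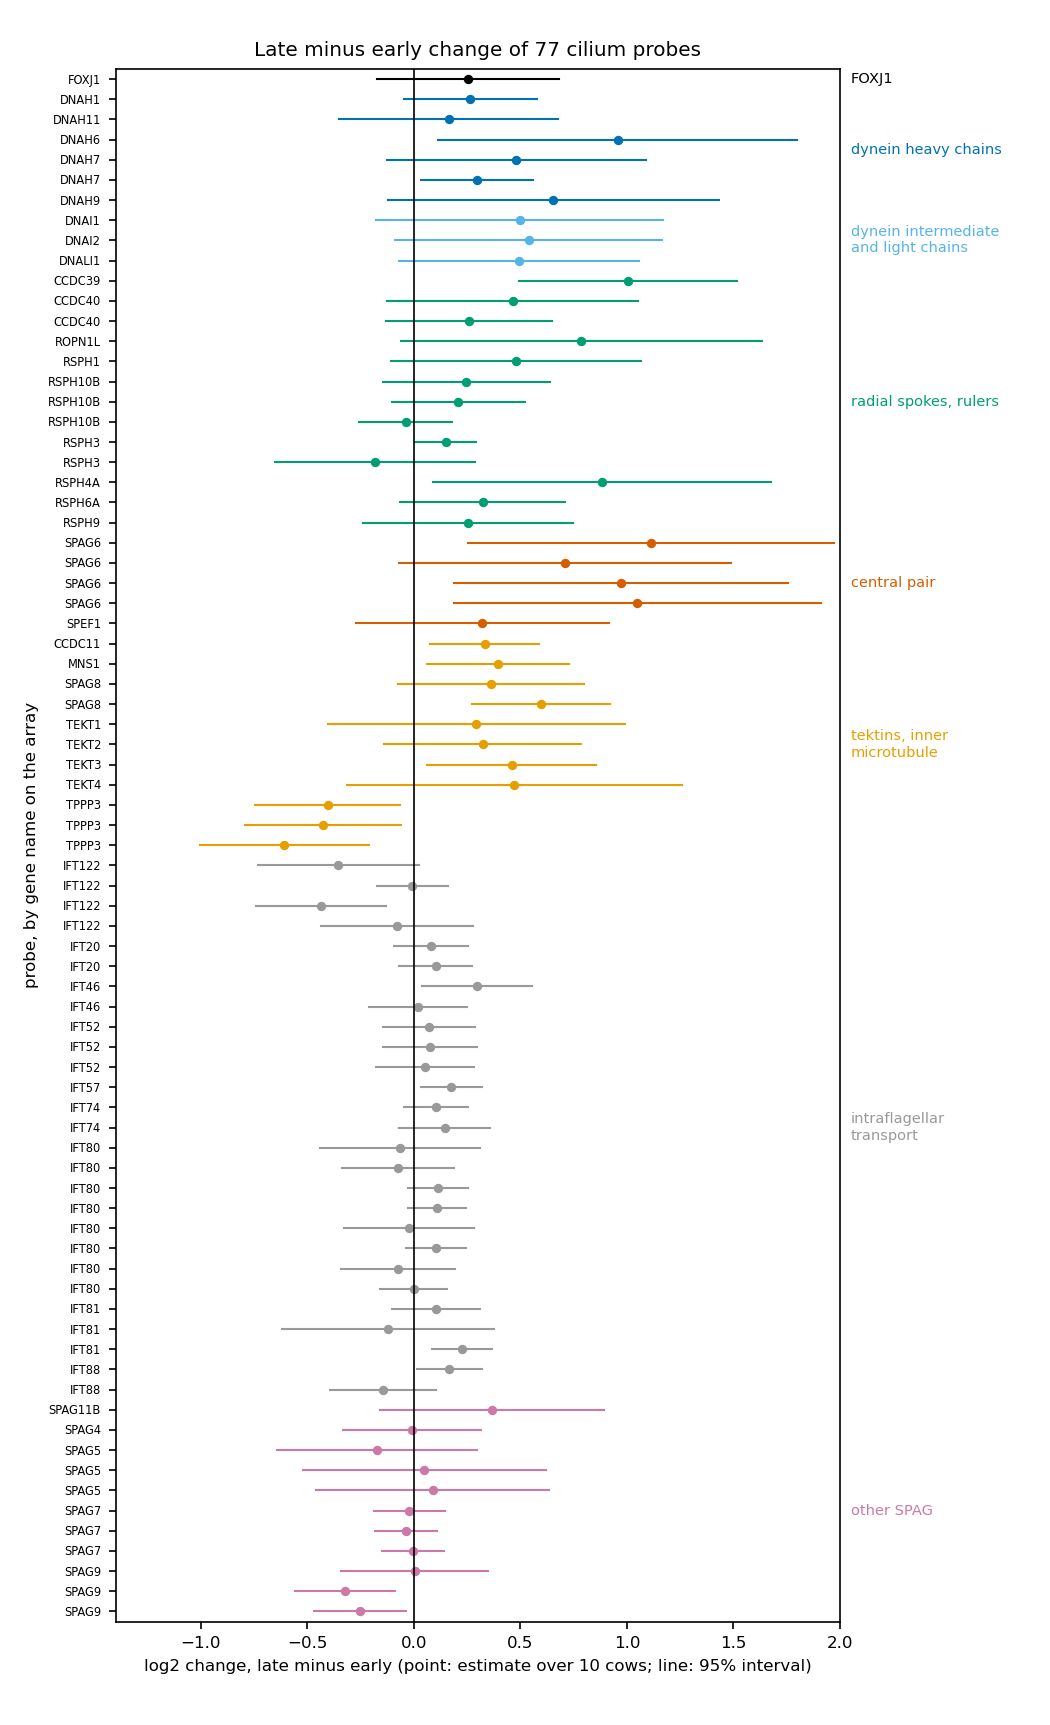
Late minus early change (log2) of each of the 77 tested cilium probes with its 95% interval over 10 cows, grouped by role. The axonemal groups lie mostly right of 0 apart from the 3 TPPP3 probes, and the IFT probes lie between -0.44 and 0.30 with narrower intervals.

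Most axonemal probes varied together from sample to sample within each period. Among the 10 early samples 32 of 39 correlated at 0.5 or more with the mean of the other axonemal genes (median r = 0.89), and among the 10 late samples 35 did (median r = 0.90). The lowest was RSPH6A in both periods, with -0.05 and -0.41. To describe this, each probe's deviation from its own mean was averaged over the 39 tested axonemal probes, giving 1 axonemal mean per sample. Early, it was 0.74 in cow 1, 0.81 in cow 2, 0.04 in cow 3, -1.18 in cow 4, -0.96 in cow 5, -0.13 in cow 6, -0.31 in cow 7, 0.44 in cow 8, -1.36 in cow 9 and -0.03 in cow 10. Late, in the same order of cows, it was 0.68, 0.73, -0.38, 0.38, -0.80, -0.40, 0.26, 0.93, -0.12 and 0.69. Cows 1, 2 and 8 were high in both periods and cow 5 was low in both, while cows 4 and 9 were the lowest early and intermediate late. The whole range was 2.29 log2 units, or 4.88-fold. The same mean over the 27 IFT probes ranged over 0.41 log2 units.

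Within cows, the axonemal mean was 0.39 ± 0.65 (SD, n = 10) higher late, with 6 cows higher and 4 lower. The 2 largest increases were 1.56 in cow 4 and 1.24 in cow 9. The 4 cows whose late sample lay on slide 5 (cows 7 to 10) all had increases, of 0.49 to 1.24, and of the other 6 cows 2 had increases. Without cow 4 the median change of the 39 probes was 0.25, and without cows 4 and 9 it was 0.16, with 32 of 39 still positive. Without both cows 28 of the 39 probes had a change smaller by over 1.5 times, and 2 of these, SPEF1 and TEKT1, turned negative. With 1 cow left out this held for 20 of the 34 positive probes, at their lowest without cow 4 for 10 of them and without cow 9 for 8; FOXJ1 and RSPH6A, at 0.15 and 0.21, were lowest without cow 5. The early and late values of a cow correlated at r = 0.56 (rho = 0.59) over the 10 cows, and at r = 0.78 over the 8 cows without cows 4 and 9, which lay farthest from the early median. This is a description. Leaving out cows 4 and 9 selects on the outcome, and samples of neighbouring cows shared slides.

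**Figure D4:**
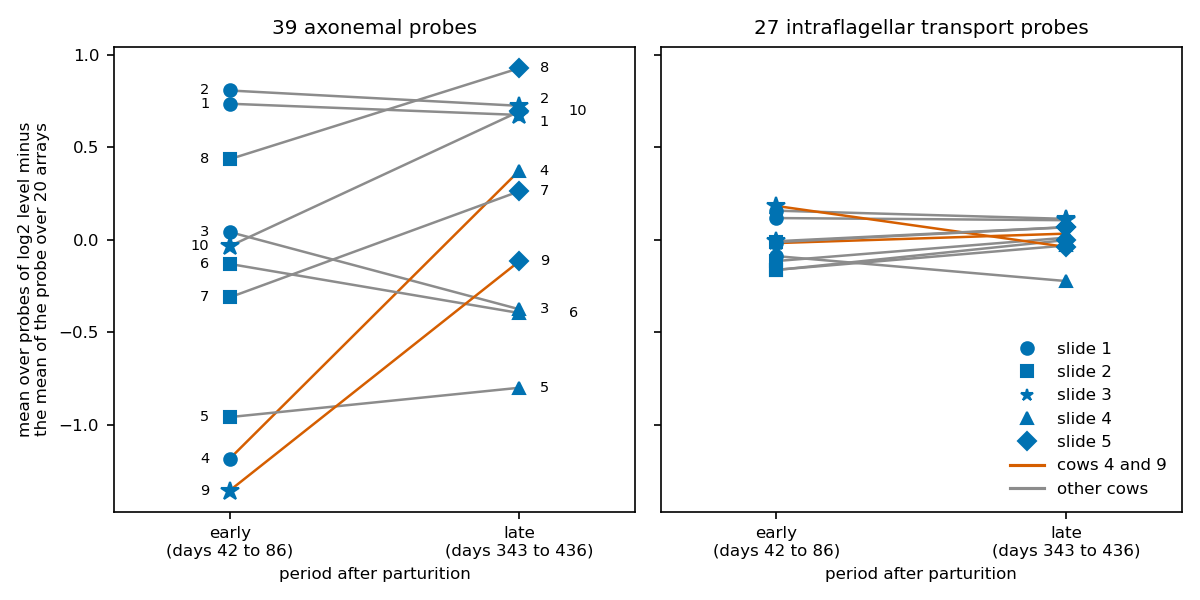
Mean deviation of 39 axonemal probes (left) and 27 IFT probes (right) in each cow, early and late, in log2 units, with symbols for the slide. The axonemal mean ranges over 2.29 log2 units and the IFT mean over 0.41, and cows 4 and 9 have the lowest early axonemal means.

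The period and the slide could hardly be separated for these genes. With slide as a further fixed block beside cow, the median change of the 39 axonemal probes turned to -0.28, with 15 positive, and the median SE rose from 0.23 to 1.05. With slide as a random block the median stayed at 0.35. Within slide 3, which compares late cows 1 and 2 with early cows 9 and 10, the median was 1.53 with 34 positive. Those late samples had axonemal means of 0.68 and 0.73, and the early samples of the same cows 1 and 2, on slide 1, had 0.74 and 0.81. The early samples of cows 9 and 10, on slide 3, had -1.36 and -0.03. Cow, slide and period cannot be told apart in these values. In all of these fits 0 cilium probes were called.

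Likeness to the axonemal mean differed between the 3 kinds of probe. With each gene compared with the mean of the other axonemal genes, 19 of 39 axonemal probes reached r of 0.9 over the 20 arrays, against 0 of 27 IFT probes and 0 of 11 other SPAG probes. Among the 33386 tested probes outside the name rule and outside the lists of further cilium genes and cell-type markers given below, 145 did, which is 0.434%. DNAH6 and SPEF1 (both 0.98) and TEKT2, ROPN1L and DNALI1 (each 0.97) were the most alike. All 5 central pair probes, most of them of SPAG6, passed 0.9. FOXJ1 reached 0.68 and the 3 TPPP3 probes 0.24 to 0.33. Among IFT probes the highest was 1 of IFT46 with 0.85. These correlations mix differences between cows and between periods, the 20 arrays are 2 from each cow, and probes with larger spread can reach higher values.

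**Figure D5:**
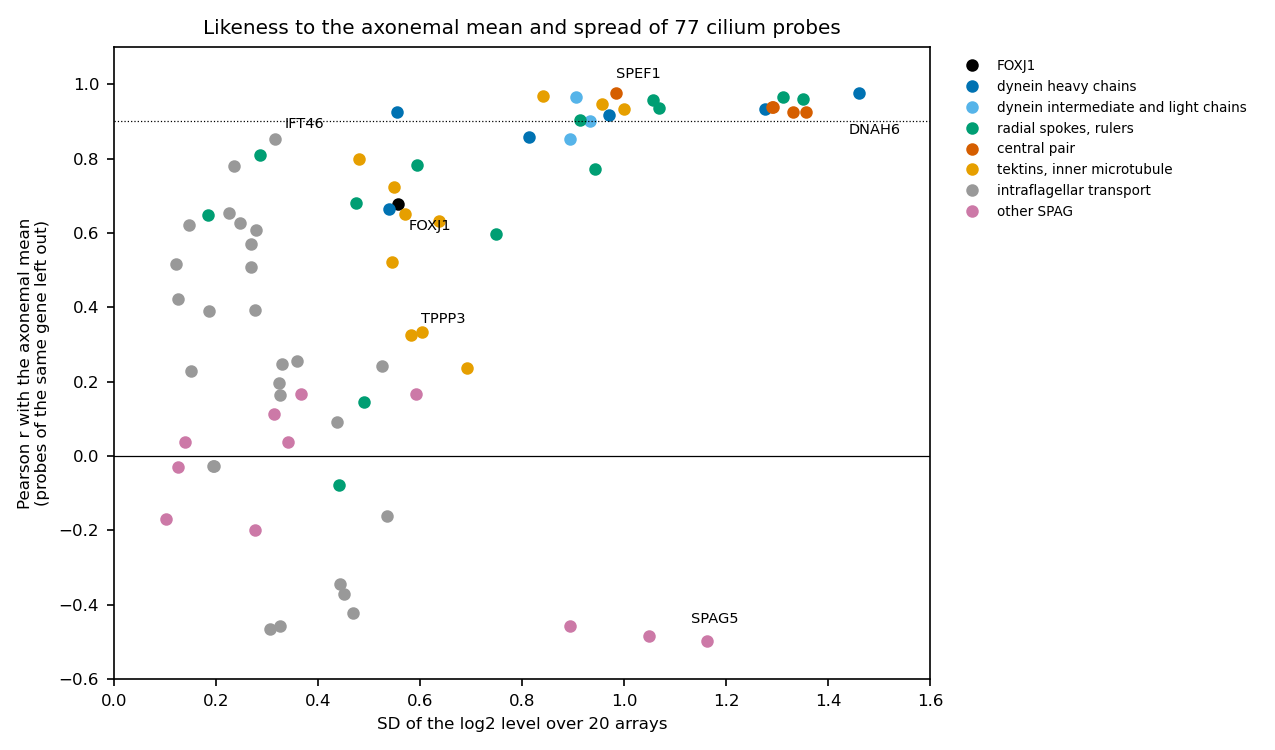
Pearson correlation of each of the 77 tested cilium probes with the mean of the axonemal probes of other genes (vertical) against the SD of its log2 level over 20 arrays (horizontal), coloured by role. The dotted line is r = 0.9, passed by 19 axonemal probes and by no IFT or other SPAG probe; TPPP3 and SPAG5 have wide spreads but r of 0.24 to 0.33 and -0.46 to -0.50.

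Among genes outside the name rule and the fixed lists, those most like the axonemal mean were MGC134331, now C11H2orf81 (r = 0.99), TSNAXIP1 (0.99), CCDC153 (0.98), CCDC74B (0.98) and a cDNA with no gene name (0.98), each over 20 arrays. Their changes were 0.62 to 0.77 with adjusted p of 0.195 to 0.281.

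The cell-type marker means followed the axonemal mean to differing degrees. Over the 20 arrays the axonemal mean correlated at 0.36 with the mean of the epithelial markers and at -0.57 with that of the stromal, -0.51 with the smooth muscle, -0.51 with the macrophage, -0.48 with the proliferation and -0.50 with the steroid-response markers. Without cows 4 and 9 these were 0.14, -0.35, -0.30, -0.16, -0.48 and -0.37. The stromal marker mean ran from -0.11 to 0.73 early and from -0.60 to 0.34 late, and 44 of 44 of its probes had negative changes with 1 called, of HAND2. The macrophage marker mean ran from -0.46 to 1.46 early and from -0.88 to 0.35 late, and all 10 of its probes had negative changes with 4 called lower. The epithelial marker mean ran from -1.23 to 0.35 early and from -0.46 to 0.55 late, with 20 of 32 probes positive and 0 called. All probes of these 3 lists passed the background filter. The gland marker mean ran from -0.90 through a median of -0.39 to 0.71 early and from -0.71 through 0.19 to 1.06 late, a mean difference of 0.36, with 10 of 15 tested probes positive and 0 called. Its r with the axonemal mean was -0.08, and -0.31 without cows 4 and 9. Of the red blood cell markers 2 of 5 probes were tested, both positive and not called, with a mean difference of 0.41 and an r of 0.09 with the axonemal mean. The part of the makeup of the biopsies in the axonemal change was not tested.

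Other genes of the multiciliated cell were mostly positive too, on lists drawn up with earlier results of these data known. Of 70 tested probes of further axoneme genes 59 were positive with a median of 0.58, with 0 called in either direction. At an unadjusted p under 0.05, 36 were higher and 3 lower, where all probes gave 10.4% higher and 13.4% lower. Pairs of these probes correlated at a median r of 0.68, so they are not separate results. With slide as a further fixed block 19 of the 70 were positive. ODF3B had the smallest adjusted p among them, 0.073, with a change of 1.14 ± 0.30 and 10 of 10 cows higher, followed by CCDC170 with 0.57 ± 0.16 and an adjusted p of 0.084. All 19 tested probes of dynein assembly and docking factors were positive, with a median of 0.44 and 0 called. Among these, the gene on the X chromosome now named DNAAF6, an assembly factor, had a change of 0.84 ± 0.25 (adjusted p = 0.091) and WDR63, now DNAI3, one of 1.17 ± 0.36 (adjusted p = 0.096).

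The regulators of ciliogenesis gave smaller changes. Of their 10 tested probes 9 were positive with a median of 0.16 and 0 called. DEUP1, a protein of the structure that multiplies centrioles in multiciliated cells, had a change of 1.12 ± 0.36 with an adjusted p of 0.107, and MYB, a transcription factor of multiciliated cell formation, one of 0.43 ± 0.26 with an adjusted p of 0.330. Genes of the primary cilium and the BBSome, its membrane protein carrier, gave estimates around 0: 17 of 39 tested probes were positive, the median was -0.02 and 0 were called. BBS4, a BBSome subunit, had a change of 0.30 ± 0.07 (adjusted p = 0.062, 10 of 10 cows higher), and BBS12, a chaperonin-like assembly protein, one of -0.50 ± 0.12 (adjusted p = 0.064, 10 of 10 cows lower). With cow as a random effect both passed the test, with adjusted p of 0.0346 and 0.0254 (limma), where 1536 probes of the array did.

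Many axoneme genes carry older names on this array. By current symbol, 75 further probes of 46 genes would have the names of the rule, mostly CFAP genes, and this set was drawn up after the array's names were seen. Probes of the lists above were not taken out of it. Some, such as that of WDR63, now DNAI3, therefore count in both, and the set is not separate from those lists. Of 69 tested 62 were positive with a median of 0.39 and 0 called. CFAP299, listed on the array as C6H4orf22, had a change of 1.14 ± 0.29 with an adjusted p of 0.068 and was higher in 10 of 10 cows, and its second probe had a change of 1.18 ± 0.36.

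Within each period the days since calving differed between cows, so a trend per 10 days was also fitted. It called 0 probes on the array in the early period and 0 in the late one (limma), 0.0% each. At an unadjusted p under 0.05 there were 5.28% of all probes early and 1.13% late. Of the 77 cilium probes 1 was below that level early, of DNAH11 (p = 0.0185 in limma, adjusted p = 0.909), and 0 late.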

How the data were processed

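Endometrial biopsies of 10 cows, each sampled early and late, were measured on 20 one-colour Agilent arrays. Per the labels' protocols, total RNA was column-purified, mixed with spike-in controls and given a Cy3 label. Per the submitters' processing notes and the file headers, Agilent Feature Extraction 10.5.1.1 gave the deposited intensity values, background-subtracted for each spot. The series' deposited log2 table, tested on the scanner files, was found to be the same signal after 75th percentile scaling, centred on each probe's median, and was used as an alternative.

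Here log2 processed signals were scaled by the 75th percentile of their array. Spots that are controls or carry an outlier flag were dropped, spots of 1 probe averaged, and 33759 of 43653 probes tested with limma 3.58.1 in R 4.3.3 (lmFit and eBayes, two-sided, cow as a fixed block, Benjamini-Hochberg adjustment over all tested probes, threshold 0.05); summaries used Python 3.11.15. Each probe stood for itself. Current names came from RefSeq (ARS-UCD2.0), used for names only. Precision is limited by the number of arrays. The script was tested on simulated data.

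The cows pair the samples because the same animals were biopsied again, per the labels' animal numbers and titles; the source names of late samples carry other numbers, a conflict the labels do not settle. A cow's early and late deviations correlated at -0.11 to 0.77 (median 0.41), above 0.1 in 8 of 10 cows, and with other cows at a median of -0.03. The lowest were those of cow 6 (-0.107), cow 9 (0.079) and cow 4 (0.135). Cows 4 and 9 also had the largest rises of the axonemal mean. The alternatives changed the pairing, background correction, scaling, filter, probe choice, variance model and slide term, and left out each cow or cows 4 and 9.

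The members and lists were chosen with earlier results of these data known. Probes were named by rule: any called; in each role up to 4 of smallest p; the 6 of largest SD and the 6 of highest level; genes whose probes disagree in sign; FOXJ1; of each other list up to 4 called or else the 2 of smallest p. Further members were named to account for each role. Some probe sequences are not reported here.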

Additional observations from a re-analysis of the deposited data

Results flagged for a closer look

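Of 154 sets of early or late samples of the 77 tested cilium probes 11 had a sample far from the others by Dixon's gap criterion, where chance gives about 1 in 20. All 3 tested TPPP3 probes had cow 4 as an isolated lowest early sample, at -1.14, 1.85 and 1.86, with the nearest other samples at 0.80, 3.71 and 3.77. The probes overlap or read the same gene, so this is 1 observation. That sample also had the highest steroid-response marker mean of the 20 samples, 3.05.

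Of the SPAG5 probes 2 had cow 3 as an isolated highest late sample, at -3.43 and -0.61, where the next were at -4.71 and -2.43. The proliferation marker mean of that sample was 1.98, the highest of the 20 samples. A SPAG7 probe had cow 10 lowest in the late period at 2.31, with the next at 2.62, and an RSPH3 probe had cow 9 lowest in the late period at -7.99, with the next at -6.99. That RSPH3 value lay under the lowest spot well above background of its array, -7.00.

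Both IFT20 probes had cow 4 as an isolated highest early sample, at 0.94 and 0.68, with the next at 0.65 and 0.40. An IFT122 probe had the same sample highest at -3.61, with the next at -4.49, and another IFT122 probe had cow 3 lowest in the late period at 0.85, with the next at 1.48.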

How the results depend on the processing

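The number of probes called over the whole array was 381 and changed by more than 1.5 times under most alternatives. It was 195 with no replicate block, 1536 with cow as a random effect, 687 after quantile normalization, 135 with no filter, 64 with slide as a random block, 0 with slide as a fixed block and 0 within the slide of both periods, and it lay between 67 and 465 with 1 cow left out. The cilium probes called were 0, except for 1 with the normexp correction (CCDC39), 3 without cows 4 and 9 and 3 without cow 4 (all TPPP3), so between 0 and 3 with 1 cow left out; leaving out the pairing changed no cilium call. The median change of the cilium probes, 0.15, was -0.11 with slide as a fixed block and 0.38 within the mixed slide. The day trends called 0 probes under all alternatives run.

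With slide as a fixed block, 40 of 77 cilium probes turned sign. The change turned to -0.31 for DNAH6, -0.077 for DNAH1, -0.28 for DNAH9, -0.62 for DNAH11, -0.013 for DNALI1, -0.66 for DNAI2, -0.15 for RSPH3, -0.18 for RSPH1, -0.88 for RSPH10B, -0.33 for ROPN1L, -0.64 for CCDC40, -1.01 for SPEF1, -0.35 and -0.87 for SPAG8, -0.64 for CCDC11, and -0.70, -0.55, -0.55 and -1.29 for TEKT1 to TEKT4. It turned to -0.043 and -0.041 for IFT81, 0.19, 0.75, 0.40 and 0.75 for IFT122, -0.20 for IFT57, -0.11 for IFT88, -0.22 and -0.59 for IFT74, -0.32, -0.35 and -0.44 for IFT52, -0.23, 1.09, 0.31, -0.11, -0.23 and 0.22 for IFT80, 1.31 for SPAG5 and 0.69 for SPAG4. Outside the name rule it turned to -0.11 for CFAP299, -0.24 for ODF3B, -0.21 for DEUP1, -2.42 for MYB, -0.67 for DNAAF6, -0.18 for BBS4, 0.55 for BBS12, -0.58 for MGC134331, -0.17 for TSNAXIP1, -0.48 for CCDC153 and -0.45 for CCDC74B.

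Within the mixed slide it turned to 0.085 for SPAG7, -0.026 for IFT80, 0.017 for IFT88, 0.17 for IFT122, -0.10 for IFT52, -0.069 for RSPH6A, 0.27 for RSPH10B, and -0.71 and -0.54 for SPAG5. Without cows 4 and 9 it turned to -0.062 for SPEF1, -0.15 for TEKT1, 0.063 for SPAG5, 0.17 for SPAG4, -0.052 for SPAG9, 0.022 and 0.0091 for IFT122, -0.029 for IFT46 and 0.14, 0.082, 0.084, 0.094 and 0.011 for IFT80.

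Scaling to the median turned SPAG7 to 0.0075 and 0.024, SPAG4 to 0.018, IFT122 to 0.021 and IFT80 to 0.0052 and 0.027. Quantile normalization turned IFT80 to 0.016 and 0.022, SPAG4 to 0.053 and RSPH10B to 0.034. The normexp correction turned RSPH10B to 0.016, SPAG4 to 0.033, RSPH3 to 0.0070 and IFT80 to 0.00067, and the deposited table turned that IFT80 probe to 0.00079. With 1 cow left out the sign changed within these ranges: IFT80 from -0.075 to 0.075, -0.026 to 0.032, -0.14 to 0.089, -0.13 to 0.013 and -0.11 to 0.028, RSPH10B from -0.093 to 0.014, RSPH3 from -0.25 to 0.017, SPAG9 from -0.11 to 0.094, SPAG7 from -0.049 to 0.023 and -0.021 to 0.031, SPAG5 from -0.11 to 0.22 and -0.051 to 0.26, IFT81 from -0.29 to 0.066, SPAG4 from -0.079 to 0.085, IFT46 from -0.032 to 0.082, IFT122 from -0.032 to 0.035 and -0.13 to 0.056, and IFT52 from -0.0062 to 0.12. The cause was not tested; the slide block itself leaves little to compare, since 1 slide holds both periods. Of the 77 tested cilium probes 54 turned sign under at least 1 alternative, and of 15 further probes examined in the same way 11 did; the remaining ones of both kept theirs under those run.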
